A study of Rattus norvegicus with 9 samples.

Results

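Fibroblasts of the prostate stroma, together with smooth muscle cells, build the extracellular matrix that surrounds the glands. The genes described here are 57 genes of fibroblasts and extracellular matrix proteins, chosen by symbol as a list of collagens, proteoglycans, elastic fibre proteins, adhesive proteins and fibroblast cell proteins. Of the 57 genes, 43 had a probe whose accession was matched to the symbol, out of 15163 gene symbols matched on the array. Of these, 42 were bright enough to be tested in at least 1 comparison and 40 in all 3 comparisons. No probe was matched for Col5a2, Col6a1, Col6a3, Col12a1, Col4a2, Col15a1, Lama2, Lama4, Lamb1, Nid1, Hspg2, Fbln2, Lox and Dpt, and these are not analysed here.

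Expression was measured in prostates of male Sprague Dawley rats, bought at an age of 6 weeks, with Agilent one-colour arrays (9 arrays, 3 per group). Sham rats had a sham operation in place of castration, injections of corn oil and distilled water by gavage. BPH rats were castrated, received dihydrotestosterone under the skin (3 mg/kg daily for 4 weeks) and distilled water by gavage. BPH+ghrelin rats were castrated, received the same androgen, and rat ghrelin (20 nmol/kg daily by gavage) during the last 2 weeks. Both androgen groups were therefore castrated, so that BPH compared to sham combines castration with androgen replacement, and the model is hyperplasia made by an androgen and not by age. The study kept 8 rats per group, and which 3 were used for the arrays, or which lobes of the prostate were taken, is not given in the sources used here. One passage of the study names another dose and route for ghrelin, and the values above are those of its methods.

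Fibrillar collagens are spun into rope-like fibres that give a tissue its tensile strength. Small leucine-rich proteoglycans, such as decorin and lumican, bind these fibres, set their width and spacing, and hold growth factors of the TGF-β family. In prostate hyperplasia, stroma and glands both grow, and the ratio of fibrous stroma to muscle and epithelium varies. Prostate tissue was measured whole, so that fewer fibroblasts and less RNA per fibroblast cannot be told apart in these values.

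Promoter windows are printed for a proteoglycan that was lower after castration and androgen (Fmod), for a proteoglycan that was also highest in sham but did not pass the test (Omd), and for the intermediate filament gene that was lower in BPH+ghrelin (Vim). The sequences are the 250 bases before the annotated gene start, from RefSeq (build GRCr8), read 5′ to 3′ on the strand of the gene. Capitals mark matches, on either strand, to the motif of the TATA box, spelled TATAAA, and to that of GC boxes, spelled GGGCGG. The half-site of the androgen receptor, AGAACA, and the site of AP-1, TGANTCA, were searched as well, and the motifs do not overlap with each other in these 3 windows.
Fmod (chr13:48045317-48045566, strand +): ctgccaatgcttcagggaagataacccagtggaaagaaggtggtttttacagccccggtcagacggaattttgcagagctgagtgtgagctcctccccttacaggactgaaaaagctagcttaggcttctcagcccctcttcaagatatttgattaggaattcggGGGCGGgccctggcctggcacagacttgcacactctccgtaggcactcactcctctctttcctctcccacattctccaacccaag
Omd (chr17:15274871-15275120, strand -): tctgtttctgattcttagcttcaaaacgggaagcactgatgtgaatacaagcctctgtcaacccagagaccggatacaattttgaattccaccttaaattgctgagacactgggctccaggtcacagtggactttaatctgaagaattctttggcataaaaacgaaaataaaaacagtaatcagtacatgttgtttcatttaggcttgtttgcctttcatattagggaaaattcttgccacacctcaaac
Vim (chr17:81577011-81577260, strand +): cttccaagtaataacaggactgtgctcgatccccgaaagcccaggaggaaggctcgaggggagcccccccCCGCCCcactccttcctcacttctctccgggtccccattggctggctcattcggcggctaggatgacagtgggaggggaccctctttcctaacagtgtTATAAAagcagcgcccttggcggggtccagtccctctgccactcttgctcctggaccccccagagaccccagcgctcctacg
The Omd window holds none of the 4 motifs, which says only that these letters are not in this window. An entry in the promoter table was found for 37 of the 57 genes. GGGCGG was found in 21 of these 37 windows (56.8%), compared to 30.5% of 33469 promoter windows of the same length. AGAACA was found in 4 of 37 windows (10.8%; Col5a1, Lama2, Lum and Postn), compared to 17.5% of all windows. TATAAA was found in 7 of 37 (18.9%), compared to 12.9% of all windows, and TGANTCA in 3 of 37 (8.11%), compared to 6.34%. A match describes the letters of a window and is not a binding site.

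Arrays differed in brightness and in their relation to each other. The median raw signal ranged from 40.9 (sham 2) to 133 (BPH 1), and the share of probes well above background was 61.4% on sham 2 and at least 69.5% elsewhere. Most collagens and several elastic fibre genes were lowest on sham 2, and values without sham 2 are given for the genes of these roles that moved most. BPH 1 to 3 and BPH+ghrelin 1 were scanned together, sham 1, sham 2, BPH+ghrelin 2 and BPH+ghrelin 3 were scanned together, and sham 3 was scanned alone. No scan held both BPH and sham, so that a fit with the scan as a fixed block compares them only by way of the BPH+ghrelin arrays. In that fit the median difference of BPH to sham was 0.62, and 0 of the 41 genes were called in limma (0.0102% of all genes). In the fit without the block, 13 of 41 had an unadjusted p under 0.05, compared to 26.5% of all genes. Most of the 40 genes tested throughout had the same array in the middle of a group: sham 3 for 35, BPH 2 for 34 and BPH+ghrelin 2 for 35 genes. The tests assume independent arrays, and whether these arrays are independent was not tested.

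**Figure D1:**
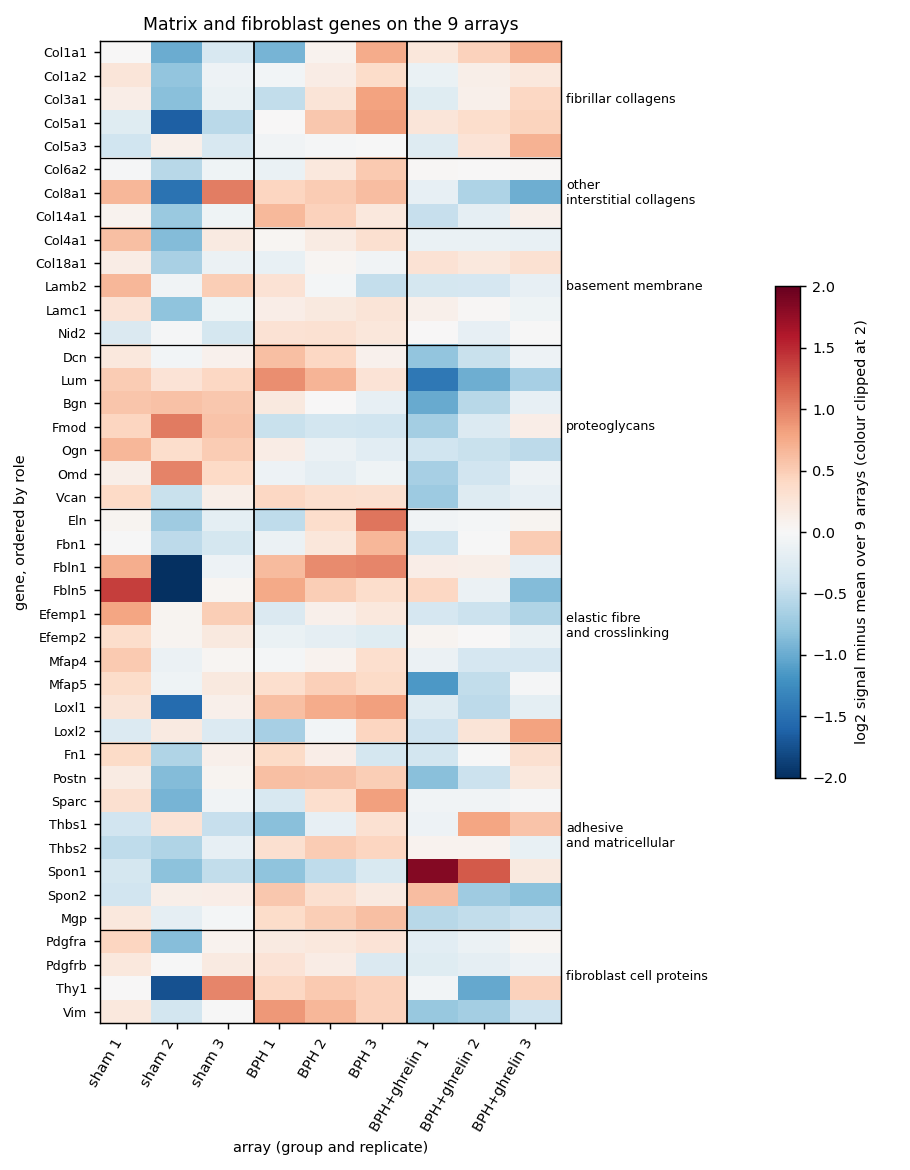
Log2 signal of 42 genes (rows, ordered by role) on the 9 arrays (columns), as the deviation from the gene's mean over 9 arrays; red is above and blue below the mean, and black lines separate groups and roles. Most collagens and several elastic fibre genes are lowest on sham 2, while most proteoglycan rows turn from red in sham to blue in BPH+ghrelin 1 and 2.

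After castration and androgen, 2 of the 41 genes tested differed from sham (limma, Benjamini-Hochberg adjusted p under 0.05 over all genes tested). Thbs2 was higher and Fmod was lower in BPH. This is 4.88% of the genes tested, compared to 4.33% of 19552 features tested, and thus near the background. These features include transcripts and probes without a matched symbol, counted by their accession or probe name. They are called all genes here. Of all genes, 2.15% were called higher and 2.18% lower. The log2 difference (BPH minus sham) was above 0 for 32 genes and below 0 for 9, with a median of 0.37, while the median over all genes was 0.04. This median was 0.11 without sham 2, with 24 genes above and 17 below 0. For 14 of the 41 genes (34.1%) the BPH arrays lay apart from the sham arrays, compared to 31.3% of all genes. A difference of at least 2-fold was found for 4 genes, compared to 8.16% of all genes, and 13 genes had an unadjusted p under 0.05, a criterion met by 26.5% of all genes.

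With ghrelin on top of castration and androgen, Lum, Mgp and Vim fell compared to BPH. In limma 0 of the 41 genes tested were called higher, compared to 0.496% of all genes, and Spon1 did not pass the test (log2 difference 1.62, adjusted p = 0.074). These 3 genes are 7.32% of the genes tested, compared to 1.48% of 19749 features tested, and 0.987% of all genes were called lower. The log2 difference (BPH+ghrelin minus BPH) was below 0 for 33 genes and above 0 for 8, with a median of -0.32, compared to 0.02 over all genes. The arrays did not overlap for 23 genes (56.1%), compared to 39.2% of all genes. BPH+ghrelin was lower for 20 of these and higher for 3, while over all genes 19.3% were lower and 19.8% were higher without overlap. The difference was at least 2-fold for 5 genes, compared to 6.10% of all genes, and 14 had an unadjusted p under 0.05, compared to 21.1%. Within the single scan that held both groups, the difference of BPH+ghrelin 1 to the 3 BPH arrays had a median of -0.34. It rests on BPH+ghrelin 1 alone and shares all its arrays with the difference of 3 against 3 arrays. Of the smooth muscle markers, Myh11 and Cald1 fell in this comparison too, as did the leukocyte marker Ptprc among the immune markers, with values beside the other markers further on.

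Compared to sham, 5 genes were lower in BPH+ghrelin (Ogn, Lum, Bgn, Efemp1 and Fmod) and 1 was higher (Spon1). Together they are 14.6% of the 41 genes tested, compared to 6.30% of 19197 features tested, of which 3.30% were lower and 3.00% higher. The difference was at least 2-fold for 4 genes, compared to 7.41% of all genes. The log2 difference (BPH+ghrelin minus sham) was above 0 for 22 genes and below 0 for 19, with a median of 0.02, or -0.30 without sham 2. The arrays did not overlap for 18 genes (43.9%), compared to 30.4% of all genes, and 12 of the 18 were lower in BPH+ghrelin and 6 higher, compared to 12.8% lower and 17.5% higher over all genes. Within the scan shared by 2 arrays of each group, the median difference was 0.12, from arrays that are also part of the difference above. The 3 comparisons share their arrays in pairs and are not independent of each other.

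**Figure D2:**
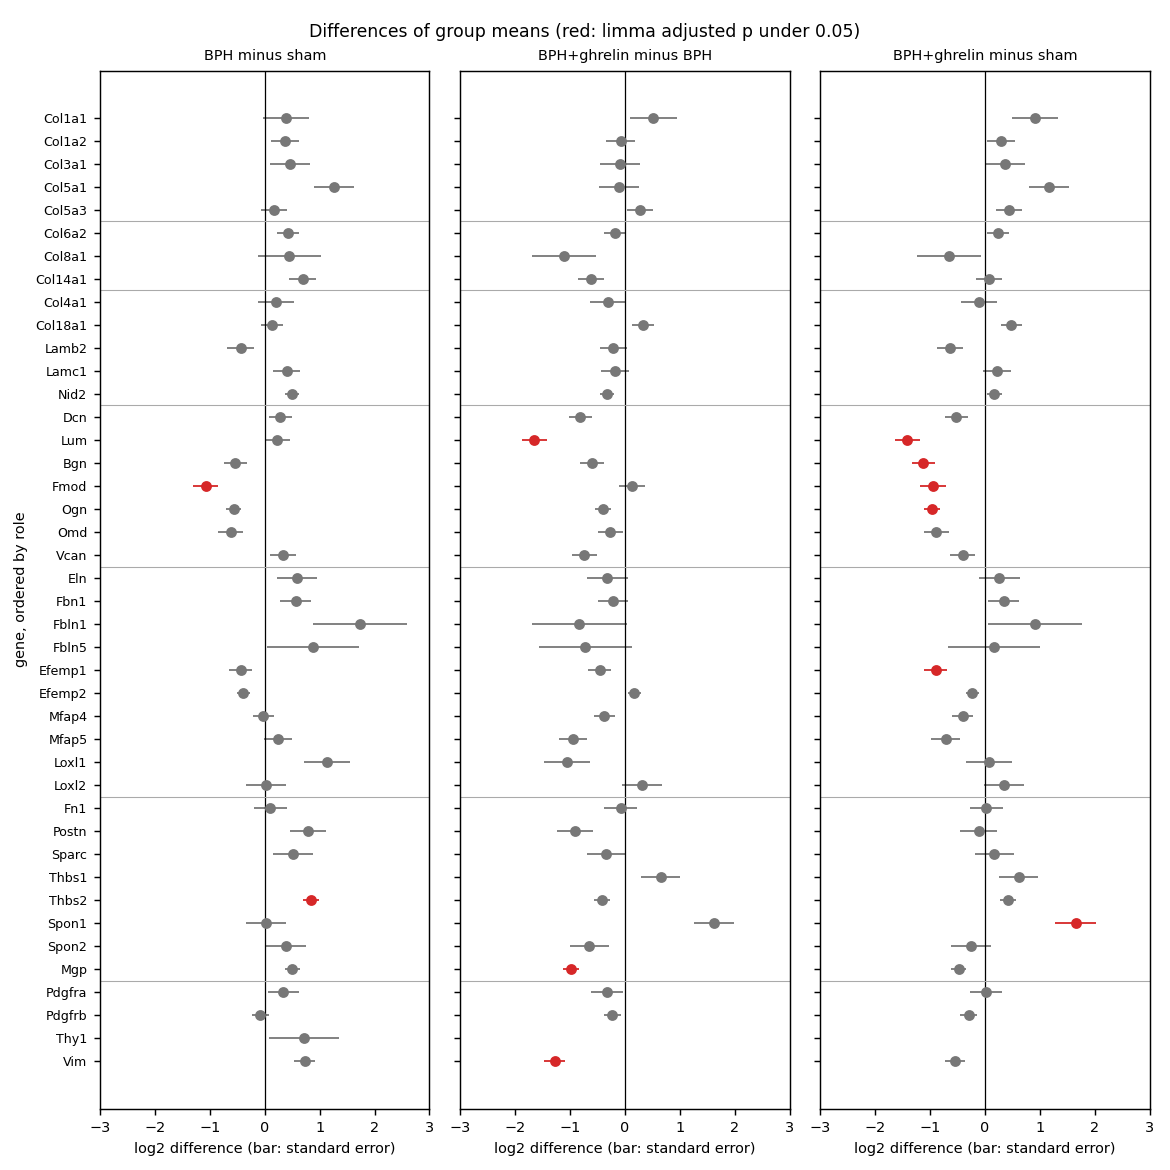
Log2 difference of group means (x axis; bars are standard errors) for each tested gene (y axis, ordered by role) in the 3 comparisons, with limma adjusted p under 0.05 in red. Red points are Fmod and Thbs2 in BPH against sham, Lum, Mgp and Vim in BPH+ghrelin against BPH, and 6 genes in BPH+ghrelin against sham.

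Of the 9 genes called in at least 1 comparison, 4 are proteoglycans (Fmod, Lum, Ogn and Bgn), with Bgn called on the brighter of its 2 probes. All 7 proteoglycans had a probe and were tested in each comparison. In BPH+ghrelin compared to sham, all 7 had lower means and 4 of them passed the test (Ogn, Lum, Bgn and Fmod), with a median log2 difference of -0.95. These 4 are 57.1% of the 7, compared to 3.30% of all genes called lower. Without Bgn 3 of 6 were called (50%), and with the second probe of Bgn, a choice made after its values were seen, 6 of 7 had lower means, with a median of -0.89. The median of -0.95 stayed between -1.08 and -0.75 when single arrays were left out, while the number of called proteoglycans ranged from 0 (without sham 3 or without BPH+ghrelin 2) to 5. In BPH compared to sham, 4 were lower and 3 higher on average, with 1 call (14.3%, compared to 4.33% of all genes). In BPH+ghrelin compared to BPH, 6 were lower and 1 higher, with 1 call (14.3%, compared to 1.48%). With the second probe of Bgn these were 3 and 4, and 5 and 2.

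Lum encodes lumican, a proteoglycan with keratan sulfate chains that limits the width of collagen fibrils. Its log2 signal was 6.57, 6.33 and 6.47 in sham, 6.98, 6.73 and 6.33 in BPH, and 4.62, 5.08 and 5.39 in BPH+ghrelin. Every BPH+ghrelin array was below every other array, while BPH and sham overlapped. Lum fell 3.14-fold in BPH+ghrelin compared to BPH (log2 difference -1.65, SE 0.23, adjusted p = 0.024), and its difference to sham was -1.42 (SE 0.23, adjusted p = 0.0145). The first call was lost without BPH 1, BPH 2, BPH+ghrelin 1 or BPH+ghrelin 2 (adjusted p up to 0.146), and the second without sham 3 or BPH+ghrelin 2 (up to 0.0681). Over all 6 fits with 1 array left out the log2 difference stayed between -1.83 and -1.45 compared to BPH and between -1.60 and -1.22 compared to sham. With normexp background correction the differences were smaller (-0.69 and -0.61), with both calls kept.

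Dcn encodes decorin, which binds collagen and TGF-β, and lies next to Lum in the RefSeq gene order of GRCr8. It measured 11.73, 11.47 and 11.60 in sham, 12.12, 11.93 and 11.60 in BPH, and 10.73, 11.07 and 11.42 in BPH+ghrelin. As for Lum, the 3 BPH+ghrelin arrays were the lowest of the 9, without overlap to either group. Neither difference passed the test (-0.81 compared to BPH, adjusted p = 0.0933; -0.53 compared to sham, adjusted p = 0.169).

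Ogn (osteoglycin) and its neighbour Omd (osteomodulin) are proteoglycans of the same family. Ogn measured 10.05, 9.74 and 9.90 in sham, 9.54, 9.27 and 9.17 in BPH, and 8.99, 8.94 and 8.86 in BPH+ghrelin. The 3 groups did not overlap and descended in this order. The difference of BPH+ghrelin to sham was -0.97 (SE 0.14, adjusted p = 0.00974), and BPH lay between, with an adjusted p of 0.061 to sham (0.0482 without sham 2) and of 0.17 to BPH+ghrelin. The call was lost without sham 3 or without BPH+ghrelin 2 (adjusted p up to 0.0602). Omd measured 8.16, 9.04 and 8.45 in sham, 7.95, 7.87 and 7.96 in BPH, and 7.38, 7.66 and 7.94 in BPH+ghrelin. All sham arrays of Omd were above all others, with differences of -0.62 (BPH, adjusted p = 0.147; -0.38 without sham 2) and -0.89 (BPH+ghrelin, adjusted p = 0.0624).

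Fmod encodes fibromodulin, which competes with lumican for a site on collagen. It measured 7.56, 8.17 and 7.71 in sham, 6.69, 6.76 and 6.73 in BPH, and 6.46, 6.86 and 7.27 in BPH+ghrelin. Sham was above all arrays of both castrated groups, which overlapped with each other. Fmod was 2.12-fold lower in BPH than in sham (log2 difference -1.08, SE 0.23, adjusted p = 0.0411) and fell by 0.95 on the log2 scale in BPH+ghrelin compared to sham (SE 0.23, adjusted p = 0.0488). This second call was lost without sham 2, sham 3, BPH+ghrelin 1 or BPH+ghrelin 2 (adjusted p up to 0.16) and under 6 of 11 other settings (adjusted p up to 0.276). The call in BPH was kept without sham 1 only, with an adjusted p of up to 0.164 in the other 5 fits, and was lost under 4 of 11 other settings. With the scan as a fixed block the difference was -0.53 (adjusted p = 0.918). With ghrelin compared to BPH the difference was 0.13 (adjusted p = 0.766).

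Bgn encodes biglycan, a close relative of decorin. Its brighter probe measured 12.03, 12.06 and 12.02 in sham, 11.68, 11.49 and 11.32 in BPH, and 10.47, 10.92 and 11.32 in BPH+ghrelin. Sham lay above all others, and BPH+ghrelin 3 equalled BPH 3 to 2 decimals. The difference of BPH+ghrelin to sham was -1.13 (SE 0.21, adjusted p = 0.022). A second probe of Bgn, well above background on all 9 arrays, gave 0.33 in this comparison, and the mean of both probes gave -0.40 (adjusted p = 0.265), so that the direction of Bgn depends on the probe. The call was lost without sham 3 or BPH+ghrelin 2 (adjusted p up to 0.0971). Vcan, the large proteoglycan versican, measured 7.05, 6.22 and 6.78 in sham, 7.07, 6.99 and 6.98 in BPH, and 5.93, 6.40 and 6.50 in BPH+ghrelin. BPH+ghrelin was below all BPH arrays (-0.74, adjusted p = 0.139) but overlapped with sham 2, and a second probe gave -0.73.

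**Figure D3:**
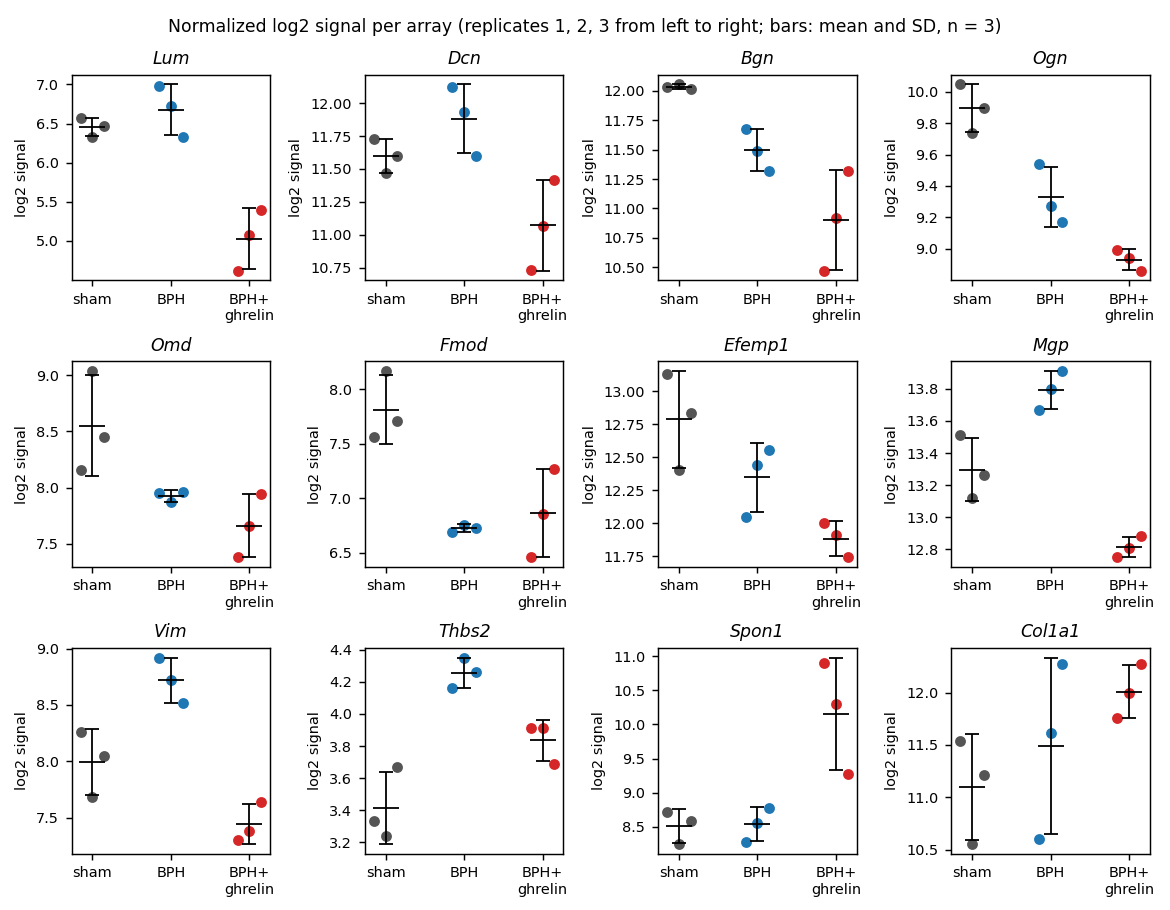
Normalized log2 signal (y axis, a different range in each panel) of 12 genes on each array (points) in sham, BPH and BPH+ghrelin, with mean and SD (bars, n = 3). Lum, Ogn, Mgp and Vim are lowest on the 3 BPH+ghrelin arrays, Fmod and Omd are highest in sham, and Spon1 is highest in BPH+ghrelin.

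Fibrillar collagens gave 0 calls in limma in all 3 comparisons. Of the 6 listed, 5 were tested, and with 4.33%, 1.48% and 6.30% of all genes called, 0 of 5 is near the background. All 5 had higher means in BPH than in sham (median 0.39) and in BPH+ghrelin than in sham (median 0.44). The first median was 0.18 without sham 2, 0.16 without BPH 3 (4 of 5 higher), 0.61 without sham 1 and 0.80 without BPH 1, and the second 0.22 without BPH+ghrelin 3 and 0.69 without BPH+ghrelin 1. Only Col5a1 had an unadjusted p under 0.05 in each of these comparisons, compared to 26.5% and 23.7% of all genes. Between BPH+ghrelin and BPH, 0 of 5 had an unadjusted p under 0.05, compared to 21.1%. The median was -0.08 there, and ranged from -0.19 without BPH 1 to 0.21 without BPH 3. Col1a1, a chain of type I collagen, measured 11.54, 10.55 and 11.21 in sham, 10.60, 11.61 and 12.27 in BPH, and 11.76, 12.00 and 12.27 in BPH+ghrelin. All BPH+ghrelin arrays were above all sham arrays (difference 0.91, SE 0.42, adjusted p = 0.231), while BPH spanned from the level of sham 2 to that of BPH+ghrelin 3. The second probe of Col1a1 gave 0.36.

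Col5a1, a chain of type V collagen, which starts the fibrils of type I collagen, measured 5.00, 3.60 and 4.69 in sham, 5.24, 5.77 and 6.07 in BPH, and 5.48, 5.59 and 5.68 in BPH+ghrelin. Both androgen groups were above all sham arrays, and 1 sham array was not well above background. The difference of BPH to sham was 1.26 (adjusted p = 0.0816), or 0.85 without sham 2 (adjusted p = 0.0864). Col1a2, Col3a1 and Col5a3 had differences of 0.17 to 0.46 in BPH and of 0.29 to 0.44 in BPH+ghrelin compared to sham, with overlapping arrays. Without sham 2, Col1a1, Col1a2 and Col3a1 differed from sham by 0.11, 0.08 and 0.18 in BPH, and by 0.63, 0.00 and 0.08 in BPH+ghrelin. Col5a3 moved the other way without sham 2, from 0.17 to 0.33 in BPH and from 0.44 to 0.60 in BPH+ghrelin, in both with arrays that no longer overlapped (adjusted p = 0.459 and 0.157).

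Of the 6 other interstitial collagens, 3 were tested, with 0 calls in limma and an unadjusted p under 0.05 for 1, 1 and 0 genes in the 3 comparisons, in the order BPH to sham, BPH+ghrelin to BPH and BPH+ghrelin to sham. Of all genes 4.33%, 1.48% and 6.30% were called and 26.5%, 21.1% and 23.7% had an unadjusted p under 0.05, so that these counts of 3 genes are too small to be set apart from the background. Col14a1, a collagen on the surface of fibrils, measured 8.41, 7.60 and 8.26 in sham, 8.99, 8.80 and 8.56 in BPH, and 7.89, 8.16 and 8.44 in BPH+ghrelin. BPH lay above all other arrays, with a difference of 0.69 to sham (adjusted p = 0.127; 0.45 without sham 2) and of -0.62 between BPH+ghrelin and BPH (adjusted p = 0.199). A second probe gave 0.75 and -0.63. Col8a1, a network collagen of vessels, measured 4.62, 2.47 and 4.98 in sham, 4.39, 4.46 and 4.57 in BPH, and 3.79, 3.33 and 2.97 in BPH+ghrelin. It was lower on all BPH+ghrelin than on all BPH arrays (-1.11, adjusted p = 0.31), and 1 BPH+ghrelin array and 1 sham array were not well above background. Without sham 2, its difference between BPH+ghrelin and sham was -1.44 (adjusted p = 0.0154), compared to -0.66 (adjusted p = 0.543) with it. Col6a2, a beaded filament collagen, differed by 0.43 in BPH and 0.24 in BPH+ghrelin compared to sham (adjusted p = 0.214 and 0.514), or by 0.26 and 0.08 without sham 2.

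Basement membrane proteins form the sheet under the epithelium and around vessels and muscle. Of 12 listed, 5 were tested, with 0 calls in limma and an unadjusted p under 0.05 for 1, 1 and 2 genes in the same order. This is 20%, 20% and 40% of the genes tested, compared to the same 26.5%, 21.1% and 23.7% of all genes. Of all genes 4.33%, 1.48% and 6.30% were called. Nid2 (nidogen 2), a linker of laminin and type IV collagen, measured 5.94, 6.20 and 5.87 in sham, 6.52, 6.53 and 6.46 in BPH, and 6.24, 6.06 and 6.22 in BPH+ghrelin. BPH was above all other arrays, by 0.50 compared to sham (SE 0.13, adjusted p = 0.0635), and the adjusted p was 0.0297 without sham 2. Lamb2, a laminin chain, measured 6.77, 6.04 and 6.60 in sham, 6.40, 6.07 and 5.64 in BPH, and 5.76, 5.78 and 5.94 in BPH+ghrelin. All BPH+ghrelin arrays were below all sham arrays (-0.64, adjusted p = 0.15, or 0.0481 without sham 2). For Col4a1 and Lamc1, both probes of a gene disagreed. Col4a1 gave 0.21 in BPH compared to sham (-0.22 without sham 2) and its second probe -0.65, and Lamc1 gave 0.40 (0.10 without sham 2) and its second probe 1.39. Col18a1 was higher on all BPH+ghrelin arrays than on all other arrays, by 0.33 compared to BPH (adjusted p = 0.358) and 0.48 compared to sham (adjusted p = 0.183; 0.25 without sham 2).

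Elastic fibres consist of an elastin core on a scaffold of fibrillins, fibulins and microfibril proteins, which lysyl oxidases crosslink. Of 12 listed genes, 10 were tested. The single call over the 3 comparisons was Efemp1 (fibulin-3; 1 of 10 compared to sham, against 6.30% of all genes), which measured 13.13, 12.40 and 12.83 in sham, 12.05, 12.44 and 12.55 in BPH, and 12.00, 11.91 and 11.74 in BPH+ghrelin. All BPH+ghrelin arrays were the lowest, and BPH overlapped with sham. Efemp1 was 1.87-fold lower in BPH+ghrelin than in sham (log2 difference -0.90, SE 0.21, adjusted p = 0.0456), and the call was kept only without sham 2 (-1.09, adjusted p = 0.0161). In the other 5 fits with 1 array left out, the adjusted p reached up to 0.15.

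Loxl1, a lysyl oxidase that crosslinks elastin, measured 5.07, 3.27 and 4.91 in sham, 5.42, 5.56 and 5.64 in BPH, and 4.55, 4.29 and 4.62 in BPH+ghrelin. BPH was above all other arrays, by 1.13 compared to sham (adjusted p = 0.146; 0.55 without sham 2, adjusted p = 0.0714), and BPH+ghrelin was -1.05 from BPH (adjusted p = 0.207). Mfap5, a microfibril protein, measured 11.37, 10.92 and 11.20 in sham, 11.34, 11.48 and 11.39 in BPH, and 9.86, 10.51 and 10.98 in BPH+ghrelin. It was lower on all BPH+ghrelin than on all BPH arrays (-0.95, adjusted p = 0.107). Fbln1 and Fbln5, fibulins of elastic fibres, were not well above background on 1 sham array each, where they measured 0.60 and 1.02 (sham 2). Their differences in BPH, 1.74 and 0.88 with all arrays, were 0.55 and -0.18 without sham 2, with none of them called. Eln (elastin) was 9.03, 9.90 and 10.61 in BPH and between 8.83 and 9.60 in sham, with a difference of 0.59 (adjusted p = 0.336; 0.37 without sham 2), and its second probe gave -0.22. Efemp2, Fbn1, Mfap4 and Loxl2 had differences between -0.41 and 0.56 over the comparisons, with no call.

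Adhesive and matricellular proteins link cells to the matrix and modulate growth factors. Of 10 listed genes, 7 were tested in BPH compared to sham and 8 in the other comparisons. Mgp encodes matrix Gla protein, an inhibitor of calcification. It measured 13.51, 13.12 and 13.26 in sham, 13.67, 13.80 and 13.91 in BPH, and 12.75, 12.81 and 12.88 in BPH+ghrelin. The groups did not overlap, with BPH highest and BPH+ghrelin lowest. Mgp fell 1.97-fold in BPH+ghrelin compared to BPH (log2 difference -0.98, SE 0.14, adjusted p = 0.0244), and its difference was 0.50 between BPH and sham (adjusted p = 0.079) and -0.48 between BPH+ghrelin and sham (adjusted p = 0.0774; 0.0375 without sham 2). The call was kept without BPH 3 and lost in each of the other 5 fits with 1 array left out (adjusted p up to 0.153), with a log2 difference of -1.04 to -0.92 over all 6. It was lost with scaling to the 75th percentile too, where the difference was -0.61.

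Thbs2 encodes thrombospondin-2, an inhibitor of vessel growth. It measured 3.33, 3.24 and 3.67 in sham, 4.16, 4.35 and 4.26 in BPH, and 3.91, 3.91 and 3.69 in BPH+ghrelin. The groups did not overlap, with sham lowest and BPH highest, and 1 sham array was not well above background. Thbs2 rose by 0.84 on the log2 scale in BPH compared to sham (SE 0.15, adjusted p = 0.024), and the call was lost without BPH 2 or BPH 3 (adjusted p up to 0.135). The call was also lost under 6 of 10 other settings (adjusted p up to 0.535). The signal of Thbs2 was low, and with normexp background correction the difference was 0.12 (adjusted p = 0.218).

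Spon1 encodes spondin 1, a secreted adhesive protein and a gene that the study named. It measured 8.72, 8.24 and 8.58 in sham, 8.27, 8.56 and 8.77 in BPH, and 10.90, 10.30 and 9.27 in BPH+ghrelin. All BPH+ghrelin arrays were above all others, with BPH+ghrelin 3 closest to them. The difference to sham was 1.65 (SE 0.37, adjusted p = 0.0407), and the difference to BPH was 1.62 (SE 0.37, adjusted p = 0.074). A second probe gave 1.91 and 1.53. The call against sham was lost without sham 2, sham 3, BPH+ghrelin 1 or BPH+ghrelin 2 (adjusted p up to 0.147) and under 5 of 11 other settings (up to 0.244). The difference to BPH passed the test in 1 of 6 fits with 1 array left out, without BPH+ghrelin 3 (2.07, adjusted p = 0.0459). Of 11 other settings it passed in 1, with the scan as a random block (1.37, adjusted p = 0.0432). In the fits where it did not pass, the adjusted p was up to 0.271 and 0.228.

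Postn (periostin), a matricellular protein of activated fibroblasts, measured 6.58, 5.54 and 6.46 in sham, 7.02, 7.00 and 6.91 in BPH, and 5.58, 5.99 and 6.63 in BPH+ghrelin. BPH was above all other arrays, with differences of 0.79 to sham (adjusted p = 0.176; 0.46 without sham 2) and -0.91 between BPH+ghrelin and BPH (adjusted p = 0.174). Fn1 (fibronectin) differed by 0.10, -0.08 and 0.02 in the 3 comparisons, in the order BPH to sham, BPH+ghrelin to BPH and BPH+ghrelin to sham, and by -0.18 and -0.26 from sham without sham 2. Sparc and Spon2 had no call. Thbs1 was well above background on none of the 3 sham arrays, 2 BPH arrays and all 3 BPH+ghrelin arrays, so that against sham it was tested only through its BPH+ghrelin arrays. It measured 2.84, 3.49 and 2.77 in sham and 3.12, 4.01 and 3.80 in BPH+ghrelin, with overlapping arrays. Tnc (tenascin-C) was not well above background on any array.

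Among the fibroblast cell proteins, Vim encodes vimentin, the intermediate filament protein of mesenchymal cells, which endothelium and leukocytes contain too. It measured 8.26, 7.68 and 8.05 in sham, 8.92, 8.72 and 8.52 in BPH, and 7.30, 7.38 and 7.64 in BPH+ghrelin. The groups did not overlap, with BPH highest and BPH+ghrelin lowest, as for Mgp. Vim fell 2.43-fold in BPH+ghrelin compared to BPH (log2 difference -1.28, SE 0.19, adjusted p = 0.0252), with 0.73 between BPH and sham (adjusted p = 0.0679) and -0.55 between BPH+ghrelin and sham (adjusted p = 0.12; 0.0405 without sham 2). The call was kept without BPH 3 and lost in each of the other 5 fits (adjusted p up to 0.154, log2 difference -1.38 to -1.18). Its promoter window, printed above, holds a match to TATAAA and a match to GGGCGG.

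The receptors for platelet-derived growth factor, which mark fibroblasts and pericytes, did not pass the test. Pdgfra measured 9.76, 8.48 and 9.40 in sham, 9.52, 9.54 and 9.61 in BPH, and 9.12, 9.21 and 9.37 in BPH+ghrelin. BPH+ghrelin was below BPH without overlap (-0.32, adjusted p = 0.547), and the sham arrays spanned both. Pdgfrb measured 7.28, 7.05 and 7.25 in sham, 7.34, 7.22 and 6.78 in BPH, and 6.83, 6.88 and 6.96 in BPH+ghrelin. It was lower on all BPH+ghrelin than on all sham arrays (-0.30, adjusted p = 0.302). Thy1 was dim and was tested only between BPH and sham (0.71, adjusted p = 0.488; -0.03 without sham 2).

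Of the 40 genes tested throughout, 16 had means in the order sham, BPH+ghrelin, BPH from low to high (40.0%, compared to 20.4% of 18891 features tested throughout), and 7 without sham 2 (17.5%, compared to 16%). The order BPH+ghrelin, sham, BPH was found for 10 (25.0%, compared to 14%), and for 14 without sham 2 (35%, compared to 15.5%). A descent from sham through BPH to BPH+ghrelin was found for 7 (17.5%, compared to 13.3%), and for 12 without sham 2 (30%, compared to 16.2%). An ascent was found for 5 (12.5%, compared to 18.8%), and for 3 without sham 2 (7.5%, compared to 20.9%). These orders therefore depend on sham 2. The median SD within a group was 0.373 in sham, 0.195 in BPH and 0.178 in BPH+ghrelin, compared to 0.306, 0.169 and 0.164 over all genes.

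**Figure D4:**
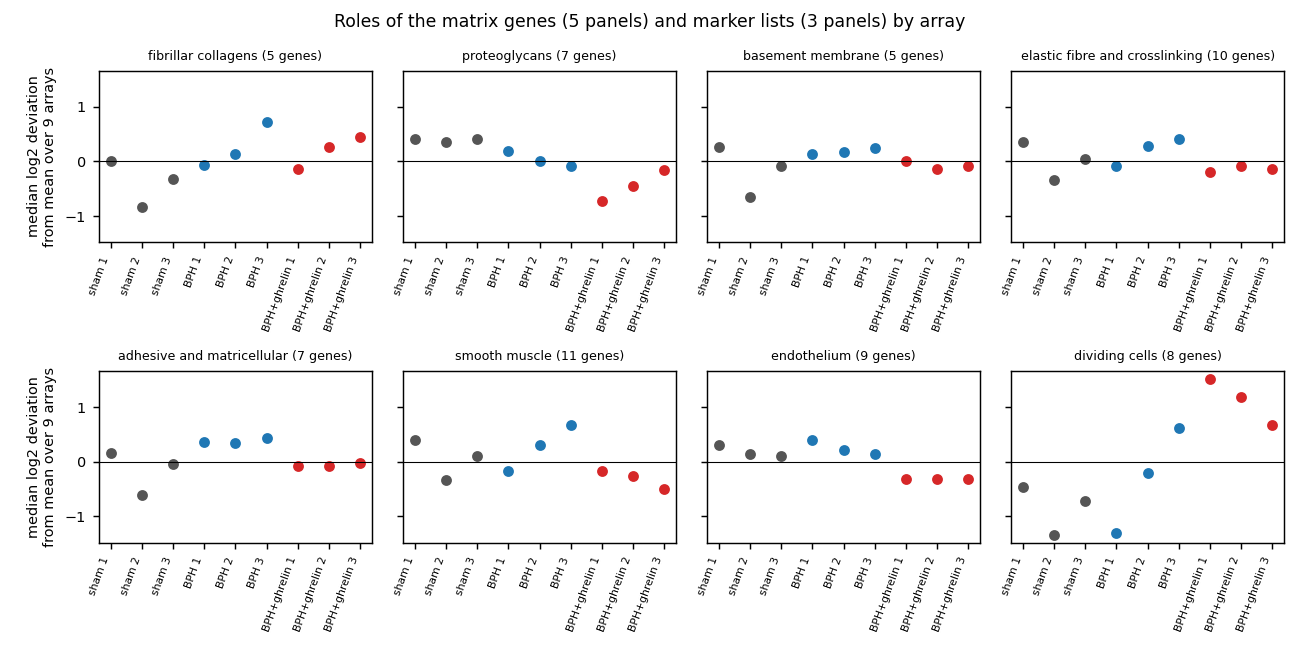
Median log2 deviation from the mean over 9 arrays (y axis) on each array (x axis; grey sham, blue BPH, red BPH+ghrelin) for 5 roles of the matrix genes and 3 marker lists. The proteoglycan median lies between 0.35 and 0.42 in sham and between -0.73 and -0.16 in BPH+ghrelin, and the endothelial median is -0.32 to -0.31 in BPH+ghrelin and above 0 on all other arrays.

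Of 28 listed enzymes and helpers of collagen processing, 22 were tested. In BPH compared to sham 1 of 22 was called (4.55%, compared to 4.33% of all genes): P4ha2, a subunit of the prolyl hydroxylase that stabilises collagen, fell by 0.71 on the log2 scale (adjusted p = 0.0259). In BPH+ghrelin compared to sham 3 of 22 were called (13.6%, compared to 6.30%). P4ha2 was -0.95 (adjusted p = 0.00675) and Tmem38b, an ion channel of the endoplasmic reticulum, was -0.62 (adjusted p = 0.0456), while Bmp1, the protease that trims procollagen, was 0.52 higher (adjusted p = 0.0281). Of the 24 listed matrix receptors, 13 were tested in BPH+ghrelin compared to sham and 2 were lower (15.4%, compared to 6.30% of all genes called): Itga8, an integrin chain of mesenchymal cells (-1.09, adjusted p = 0.0227), and Ddr2, a receptor for fibrillar collagen (-0.85, adjusted p = 0.039). In BPH compared to sham, 0 of 14 receptors passed the test in limma, compared to 4.33% of all genes, and 7 had an unadjusted p under 0.05, compared to 26.5%. Between BPH+ghrelin and BPH, 0 genes of both lists passed the test, compared to 1.48% of all genes, while 5 of 22 and 4 of 14 had an unadjusted p under 0.05, compared to 21.1%. With single arrays left out, the call of P4ha2 was kept in 2 of 6 fits against sham in BPH and in 6 of 6 in BPH+ghrelin, and those of Itga8, Bmp1, Tmem38b and Ddr2 in 3, 2, 1 and 1 of 6.

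Of 30 other matrix proteins, 18 were tested in BPH+ghrelin compared to sham, and 3 were called (16.7%, compared to 6.30% of all genes, and 3.00% called higher). These were Lamb3, a laminin chain of epithelia and one of the basal epithelial markers (1.23, adjusted p = 0.0109), Col7a1, the collagen of anchoring fibrils (0.98, adjusted p = 0.0292), and Lama5, another laminin chain (0.68, adjusted p = 0.0369). In BPH compared to sham 1 of 19 was called (5.26%, compared to 4.33%), which was Lama5 (0.85, adjusted p = 0.0246). Between BPH+ghrelin and BPH 1 of 19 was called (5.26%, compared to 1.48%): Ltbp1, which stores latent TGF-β in the matrix (-0.87, adjusted p = 0.0426). With single arrays left out, the calls of Lamb3, Col7a1 and Lama5 in BPH+ghrelin were kept in 5, 2 and 2 of 6 fits, that of Lama5 in BPH in 4 of 6, and that of Ltbp1 in 1 of 6.

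Markers of other cells of the tissue were measured on the same arrays. Smooth muscle markers (11 of 12 used) had log2 summed signals of 15.45 to 15.86 in sham, 15.30 to 16.08 in BPH and 15.48 to 15.60 in BPH+ghrelin. In BPH+ghrelin compared to BPH, 10 of 11 were below 0, with a median of -0.55, and 2 were called lower (18.2%, compared to 0.987% of all genes): Myh11, the myosin of smooth muscle (-0.96, adjusted p = 0.016), and Cald1, caldesmon (-1.16, adjusted p = 0.0291). Compared to sham, 10 of 11 were below 0 as well, with a median of -0.37, and both were called again (18.2%, compared to 3.30%; -1.07, adjusted p = 0.00244; -0.96, adjusted p = 0.0213). With single arrays left out, the call of Myh11 was kept in 2 of 6 fits against BPH and in 6 of 6 against sham, and that of Cald1 in 1 of 6 and 3 of 6. Endothelial markers (9 of 12 used) were at 10.35 to 10.67, 9.97 to 10.53 and 9.81 to 9.99, and their median deviation was lower on all BPH+ghrelin arrays (-0.32 to -0.31) than on all others (0.10 to 0.39), in the same direction as Lum, Mgp and Vim. In limma 0 of 8 tested endothelial markers were called against BPH (1.48% of all genes), where 7 were below 0 and 3 had an unadjusted p under 0.05. Against sham 1 of 7 was called (14.3%, compared to 6.30%), which was Pecam1 (-0.62, adjusted p = 0.0433, kept in 1 of 6 fits). Markers of dividing cells (8 of 10 used) were at 9.40 to 10.36, 9.50 to 11.36 and 11.56 to 12.43. All 8 tested were higher in BPH+ghrelin than in BPH (median 1.41), opposite to most matrix genes, with 1 call (12.5%, compared to 1.48%), which was Foxm1 (1.39, adjusted p = 0.043, kept in 1 of 6 fits). Compared to sham all 8 were higher as well (median 2.00), with 5 calls (62.5%, compared to 6.30%; Aurkb, Ttk, Foxm1, Ccna2 and Plk1), each kept in 0 to 3 of 6 fits, and in BPH 7 of 8 were higher with 0 calls and 0 at an unadjusted p under 0.05. Seminal vesicle markers (8 of 9 used) were at 16.47 to 17.27 in sham, 9.62 to 14.80 in BPH and 9.20 to 11.96 in BPH+ghrelin. In BPH 3 of 8 were called lower than in sham (37.5%, compared to 2.18% of all genes). These were Svs3a, Svs4 and Svs3b, kept in 3, 3 and 6 of 6 fits. In BPH+ghrelin 5 of 8 were called lower than in sham (62.5%, compared to 3.30%). These were Semg1, Svs3a, Svs4, Tgm4 and Svs3b, kept in 0, 6, 3, 2 and 6 of 6 fits.

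Adipocyte markers (7 of 10 used, with Lep not above background) ranged from 12.22 to 14.10 over the 9 arrays. They were at 12.25, 14.10 and 13.18 in sham, 13.49, 13.19 and 12.85 in BPH, and 12.22, 13.30 and 13.86 in BPH+ghrelin. Between BPH+ghrelin and BPH, 6 of 7 were below 0, with a median of -1.16. In limma 0 of these were called, compared to 1.48% of all genes, and 0 had an unadjusted p under 0.05. Striated muscle markers (10 of 12 used, with Myh4 not above background) were at 11.79 to 11.91 in sham, 10.60 to 11.91 in BPH and 11.08 to 11.28 in BPH+ghrelin. Ckm, the creatine kinase of muscle, was lower than in sham in BPH (-1.90, adjusted p = 0.0045) and in BPH+ghrelin (-1.96, adjusted p = 0.00264), both kept in 6 of 6 fits, and Mb, myoglobin, was lower by both comparisons too (-0.94, adjusted p = 0.0319; -0.95, adjusted p = 0.0242), each kept in 3 of 6. These are 20% and 22.2% of the markers tested, compared to 4.33% and 6.30% of all genes, and 0 of 9 were called against BPH. Secretory epithelial markers (12 of 12) were at 16.87 to 17.46, 17.14 to 17.71 and 16.98 to 17.39, with all of them detected in the tissue labelled prostate, and basal epithelial markers (7 of 10) at 13.59 to 13.84, 14.09 to 14.13 and 14.08 to 14.17. All 7 basal markers were higher in BPH than in sham, with 2 called (28.6%, compared to 4.33%; Krt14, 0.72, adjusted p = 0.0447; Krt17, 0.95, adjusted p = 0.0356). In BPH+ghrelin 5 of 7 were higher than in sham, with 2 called (28.6%, compared to 6.30%; Krt15, 1.21, adjusted p = 0.0169, and Lamb3), and 0 were called against BPH. Immune markers (8 of 12, with Cd79b and Itgam not above background) were at 15.35 to 15.41, 15.49 to 15.83 and 15.21 to 15.66. Their median deviation was -0.23 to -0.11 in BPH+ghrelin and -0.09 to 0.33 on all other arrays, also in the direction of Lum, Mgp and Vim. Of the immune markers 1 of 7, 1 of 8 and 2 of 7 were called in the 3 comparisons (14.3%, 12.5% and 28.6%, compared to 4.33%, 1.48% and 6.30%). Ptprc, the leukocyte common antigen, fell in BPH+ghrelin compared to BPH (-0.82, adjusted p = 0.0368, kept in 1 of 6 fits) and compared to sham (-0.78, adjusted p = 0.0187, kept in 3 of 6). Cd3d, a chain of the T cell receptor complex, was lower than in sham in BPH (-0.57, adjusted p = 0.0339, kept in 2 of 6) and in BPH+ghrelin (-0.69, adjusted p = 0.0137, kept in 3 of 6). Mesothelial markers (5 of 8) were at 10.58 to 11.50, 11.34 to 11.86 and 11.37 to 11.62. Their sum hides opposite changes: Itln1 was lower than in sham in BPH (-5.66, adjusted p = 0.0091) and in BPH+ghrelin (-5.87, adjusted p = 0.00552), kept in 5 and 6 of 6 fits, while Upk1b was higher (1.28, adjusted p = 0.018; 0.93, adjusted p = 0.038), kept in 3 and 2 of 6. The mean of Itln1 was 7.51 in sham and 1.85 in BPH, below the 2.06 of Tnc in BPH, which was not well above background. The size of the Itln1 differences is therefore uncertain. Itln1 and Upk1b are 2 of 5 and 2 of 4 tested (40% and 50%, compared to 4.33% and 6.30% of all genes), and Msln differed by -2.73 in BPH (adjusted p = 0.056). Compared to BPH, most markers of each list except the dividing cells were lower in BPH+ghrelin. These were 10 of 12 secretory, 5 of 7 basal, 7 of 9 striated muscle, 6 of 7 adipocyte and 6 of 8 immune markers. Mesothelial and seminal vesicle markers were lower for 3 of 4 and 6 of 7, and over all genes 9542 of 19749 were lower. The direction of Lum, Mgp and Vim was thus shared by most of these lists. The part of these cells in the differences of the matrix genes was not tested.

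**Figure D5:**
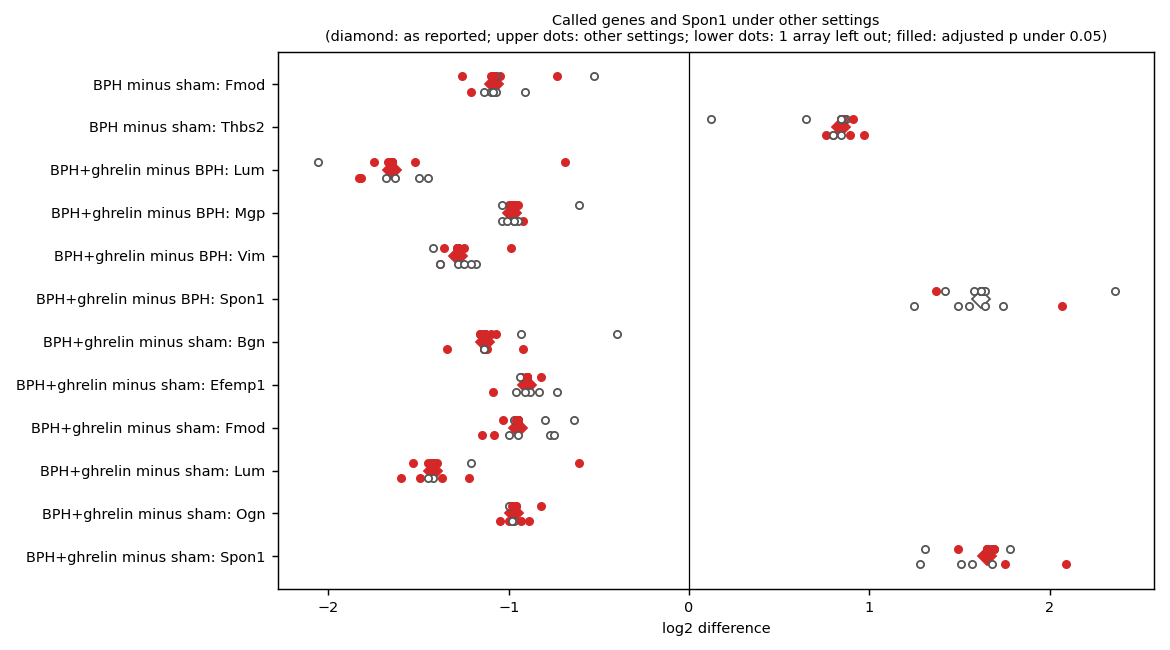
Log2 difference (x axis) of each called gene, and of Spon1 in BPH+ghrelin against BPH, as reported (diamonds), under other processing (upper points) and with 1 array left out (lower points); filled points have a limma adjusted p under 0.05. No point crosses 0, while many lose the call.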

How the data were processed

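Prostate RNA of 9 rats was amplified, labelled with Cy3 and hybridised to 1 array each. The deposited intensities had been made with Feature Extraction 11.0.1.1, per the file headers: background was subtracted and spatial trends were removed, with no normalization between arrays. The authors also deposited log2 values after quantile normalization, which were used as an alternative. Groups were taken from the sample labels.

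Outlier spots (313 to 741 per array, of 42877 that are not controls) were removed, spots of a probe were averaged, and log2 values of 30356 probes were quantile normalized. Accessions gave a gene symbol for 17998 probes (59.3%; RefSeq, GRCr8, for names, neighbours and promoters only). A probe was kept when well above background on at least 3 of 6 arrays compared, and a gene was its brightest kept probe. Probes without a symbol were counted as genes under their accession or probe name. Groups were compared with limma 3.58.1 in R 4.3.3 (3 groups, 9 arrays), with Benjamini-Hochberg adjustment over all genes tested. The script was tested on simulated data. With 3 against 3 arrays, the smallest two-sided p of an exact permutation test is 0.1. The number of arrays limits the precision. The labels do not say whether arrays of a group stem from separate rats beyond their sample number, and the study gives 3 animals per group.

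The genes, the lists and their roles were chosen with earlier results of these data known. Values on every array are given for called genes, for Spon1, and for up to 2 genes per role with the largest difference among those without overlap; Dcn, Omd, Vcan and Postn were added after their values were seen. Alternatives were other background correction, scaling, filters, probe rules, blocks (replicate number, scan), fits and arrays left out.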

Additional observations from a re-analysis of the deposited data

How the results depend on the processing

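All 203 fits of the called genes and Spon1 under other settings or without single arrays kept the direction of the difference (0 reversed). The number of called genes varied, as did the share of all genes called, given in brackets. In BPH against sham (2 of 41; 4.33%), it was 4 with normexp background correction (5.18%), 1 with scaling to the 75th percentile (4.22%), 1 without a filter on dim probes (1.98%), 1 with trend and robust fitting (4.78%), 0 with only the 6 arrays compared (0.926%), 0 with the scan as a fixed block (0.0102%) and 14 as a random block (36.3%). In BPH+ghrelin against BPH (3 of 41; 1.48%), it was 7 with only the 6 arrays compared (10.6%), 0 with the scan as a fixed block (0.0101%) and 5 as a random block (9.27%), and the median of -0.32 moved to -0.17 with normexp. The median of 0.37 in BPH against sham was 0.15 with normexp, 0.22 with the 75th percentile, 0.24 with probes above background on all 6 arrays and 0.62 with the scan as a fixed block. In BPH+ghrelin against sham (6 of 41; 6.30%), it was 3 without a filter (2.98%), 2 with only the 6 arrays compared (4.69%) and 0 with the scan as a fixed block (0.438%). The cause of these changes was not tested. With the scan as a fixed block, BPH+ghrelin against BPH rests on BPH+ghrelin 1. Where limma gave 0 calls, the unadjusted p in the fit of all arrays was under 0.05 for 13, 14 and 15 of 41 genes in the 3 comparisons. Of all genes, 26.5%, 21.1% and 23.7% met this criterion.

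Leaving out single arrays gave 0 to 6 calls and a median of 0.11 to 0.52 in BPH against sham, 0 to 3 calls and a median of -0.40 to -0.29 in BPH+ghrelin against BPH, and 0 to 8 calls and a median of -0.30 to 0.23 in BPH+ghrelin against sham. In the first comparison there were 6 calls without sham 1 (Col5a1, Fmod, Mgp, Omd, Thbs2 and Vim; 15.7% of all genes), and 0 without BPH 2 (0.609%) or BPH 3 (1.29%). In the second there were 0 without BPH 1 (0.0456%), BPH 2 (0.0152%), BPH+ghrelin 1 (0.395%) or BPH+ghrelin 2 (0.0354%). In the third there were 8 without sham 2 (10%), and 0 without sham 3 (1.34%) or BPH+ghrelin 2 (1.16%).

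Replicate numbers are shared by the groups, and the deviations of same-numbered arrays from their group means correlated by -0.12 to 0.28. With 3 arrays per group, these values cannot decide whether the numbers pair the arrays, and this was not tested. With the replicate block, 0, 0 and 1 genes were called in the 3 comparisons (1.24%, 0.0861% and 2.40% of all genes). Genes near background, such as Thbs1, Thbs2 and Thy1, are limited by their signal.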
